A study of Populus x canadensis with 12 samples.

Results

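The 10 genes described here make or control condensed tannins in poplar. They were taken by a fixed list of locus IDs, and all 10 were found among the 41335 IDs of the expression table. The list holds 8 genes for enzymes of the pathway, DFR1, DFR2, ANS1, ANS2, LAR1, LAR2, LAR3 and ANR1, and 2 genes for MYB transcription factors, MYB134 and MYB115. The names come with the list, since the table itself pairs no ID with a gene name.

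Condensed tannins, also called proanthocyanidins, are polymers of flavan-3-ols that poplars store in leaves, bark and roots, where they are known as a defence against herbivores and pathogens and are often discussed as antioxidants. Dihydroflavonol 4-reductase (DFR) makes leucoanthocyanidins. These go either directly to catechin through leucoanthocyanidin reductase (LAR), or through anthocyanidin synthase (ANS) and anthocyanidin reductase (ANR) to epicatechin. In poplar, MYB134 and MYB115 are R2R3 MYB factors known to switch on genes of this pathway when they are overexpressed.

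Leaf RNA came from 12 single greenhouse plants, rooted cuttings of 2 hybrids (85 and 89) of a Populus deltoides female and a Populus nigra male. Each of 3 stages held 4 plants, 2 of each hybrid. Stage C was kept watered as the control, stage D1 was under moderate drought, and stage D2 was under severe drought. Each plant carries its own clone number in the labels. Water was withheld for 8 or 13 days; the labels do not tie a period to a stage, and the leaf water content of the single plants is not used here. Harvest time therefore cannot be told apart from drought.

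The authors deposited RPKM, reads scaled for gene length in kilobases and for library size. Library totals recovered from the values ran from 2259634 to 10509089 reads, and the deepest was replicate 1 of hybrid 85 in C. In whole leaves, fewer cells of a type and less RNA per cell cannot be told apart, and leaf marker genes were not checked because no annotation was used. Where values are listed below, replicates 1 and 2 of hybrid 85 come first, then replicates 1 and 2 of hybrid 89.

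RPKM of the DFR, ANS and ANR genes and of LAR1 was lower in every plant under moderate drought than in any control, while MYB134 overlapped with the controls. Those 6 of 10 stand beside 5.57% of tested genes that were lower without overlap. Under severe drought hybrid 89 had low levels of DFR, ANS, LAR1 and ANR1 and almost no MYB134 reads. Below every control were 7 of 10 genes in its replicate 1 and 8 of 10 in its replicate 2, beside 36.5% and 28.1% of tested genes. In hybrid 85 LAR1, LAR2 and MYB115 were above every control in both plants, and in replicate 2 DFR1, ANS1 and ANS2 were too. That was 3 of 10 in replicate 1 and 6 of 10 in replicate 2. Beside this, 34.9% and 36.2% of tested genes were above the control range in these plants. Below every control in replicate 1 were 6 of 10, DFR1, DFR2, ANS1, ANS2, ANR1 and MYB134, beside 32.7% of tested genes. In replicate 2 it was 1 of 10, DFR2, beside 29.3%. The difference between the hybrids in the change from C to D2 was called for 0 of 10 genes (limma, smallest adjusted p = 0.0627). Of all tested genes, 0.340% were called higher and 0.129% lower. An unadjusted p under 0.05 was found for 7 of 10, beside 4414 of 24117 tested genes. Differences between the hybrids called within D2 did not hold without replicate 2 of hybrid 85, a fit that leaves 1 plant in that group. How the calls over all tested genes changed in that fit is not given here.

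Per length, LAR2 and ANR1 were the most abundant of the genes in control leaves, at 111.4 ± 37.1 and 93.6 ± 12.6 RPKM (SD, n = 4). MYB134 (56.5 ± 24.2 RPKM), DFR1 (45.9 ± 12.4 RPKM), ANS2 (44.0 ± 7.14 RPKM), DFR2 (30.2 ± 4.25 RPKM) and LAR1 (26.9 ± 10.7 RPKM) followed. The lowest 3 were ANS1 (5.88 ± 2.96 RPKM), MYB115 (3.19 ± 0.36 RPKM) and LAR3 (1.98 ± 1.5 RPKM). Neighbours in this order overlapped between plants, except that all controls had more ANS2 than any had DFR2, and more LAR1 than any had ANS1. A regulator could thus be as abundant as an enzyme gene or near the limit of the depth: MYB115 had 6 to 31 reads in a control library, MYB134 57 to 739. All 10 genes passed the filter on low values, which asked for 1 RPKM in 4 or more libraries. LAR3 reached 1 RPKM in only 6 libraries, 3 of them controls, and ANS1 in 7, 4 of them controls.

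**Figure D1:**
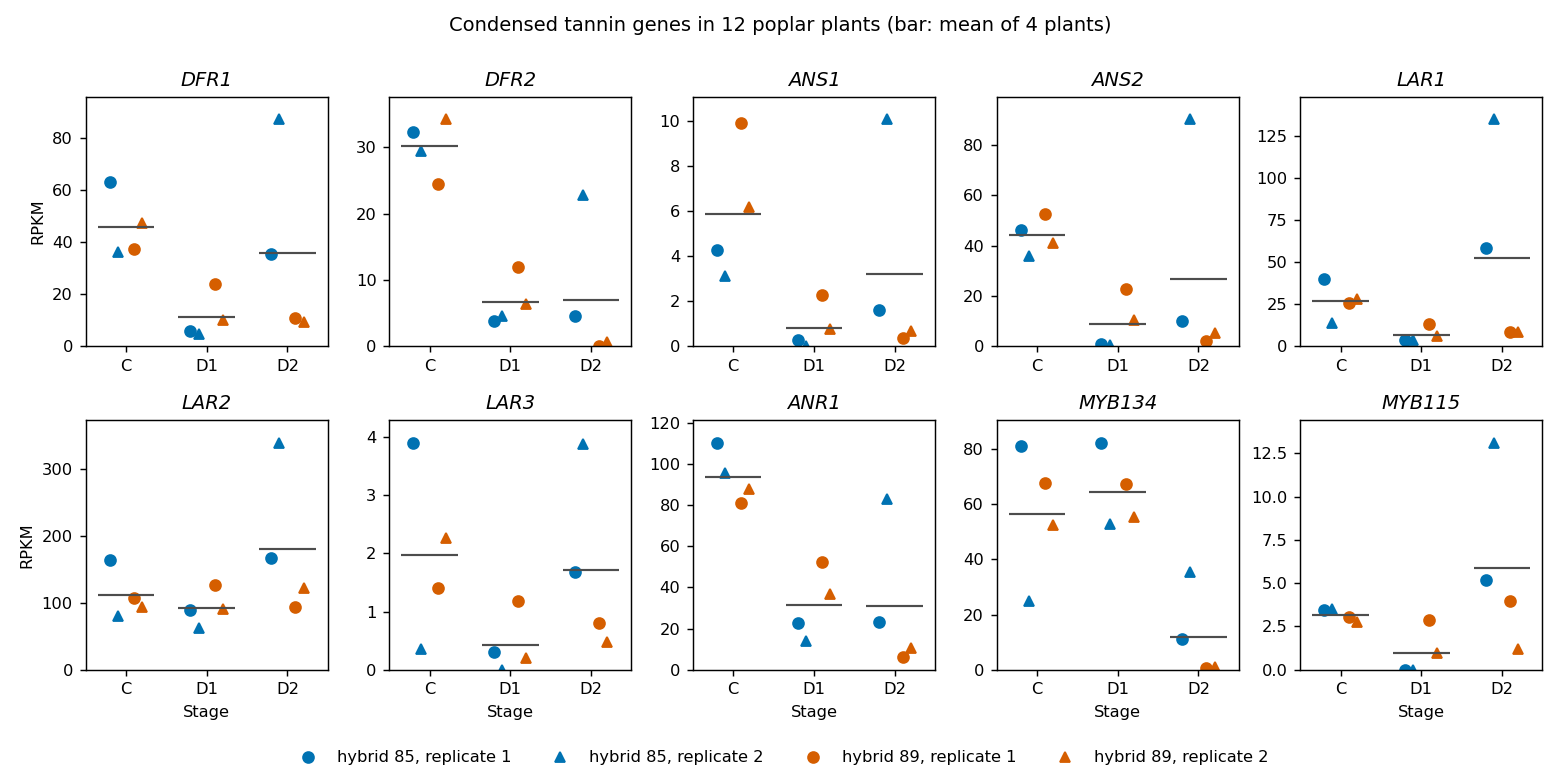
RPKM (y axis, linear from 0) of each gene in the 12 plants by stage (x axis), with blue for hybrid 85, orange for hybrid 89, circles for replicate 1, triangles for replicate 2, and a bar at the mean of 4 plants. In D2 the blue triangle is the highest point of every panel's D2 group, while MYB134 overlaps with its control values in D1 and is at 0.491 and 1.17 RPKM in hybrid 89 in D2.

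DFR commits dihydroflavonols to the leucoanthocyanidins. DFR1 (Potri.002G033600.1, chromosome number 2, 1041 bp) was at 62.9, 36.3, 37.2 and 47.4 RPKM in C. In D1 it was at 5.74, 4.80, 24.1 and 10.1 RPKM. In D2 it was at 35.3, 87.1, 11.04 and 9.53 RPKM. All D1 plants lay below all controls, whereas D2 spanned them, with 1 hybrid 85 plant just below and 1 above the control range, and hybrid 89 well below it. DFR2 (Potri.005G229500.1, chromosome number 5, 1164 bp) was at 32.4, 29.5, 24.5 and 34.2 RPKM in C. Its D1 values were 3.78, 4.56, 12.0 and 6.38 RPKM. In D2, DFR2 was at 4.56, 22.8, 0 and 0.656 RPKM, the last from 3 reads. Every drought plant lay below every control for DFR2, and in the D2 plant of hybrid 89 with no read, 3 reads would have been 1.097 RPKM.

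The 2 DFR genes did not keep their proportion. DFR1 RPKM was 1.23 to 1.94 times that of DFR2 in the controls and 1.05 to 2.02 times in D1. In the 3 D2 plants with DFR2 reads it was 3.81, 7.73 and 14.5 times, on 85, 12 and 3 DFR2 reads. The last of these is the only hybrid 89 plant among them. How reads shared by near-identical copies were counted is not known here, so values within the DFR, ANS and LAR families are uncertain to that degree.

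ANS turns leucoanthocyanidins into anthocyanidins. ANS2 (Potri.001G113100.1, chromosome number 1, 1083 bp) was the main form, at 46.2, 35.9, 52.6 and 41.2 RPKM in C. D1 values were 1.16, 0.577, 22.7 and 10.5 RPKM, the hybrid 85 values resting on 4 and 2 reads. D2 values were 10.2, 90.0, 1.97 and 5.17 RPKM. The D1 plants lay below the controls without overlap, hybrid 85 far below hybrid 89, and in D2 a single plant stood at 90.0 RPKM above every control while the other D2 plants stayed below them. ANS1 (Potri.003G119100.1, chromosome number 3, 1086 bp) had 3.13 to 9.90 RPKM in C. It had 0 to 2.29 RPKM in D1, where the hybrid 85 plants had 1 read and none, and 0.392 to 10.1 RPKM in D2. Its order of plants in D1 and D2 was that of ANS2, and ANS2 stayed 4.01 to 13.8 times as high as ANS1 in the 11 plants with ANS1 reads.

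LAR makes catechin-type units. LAR1 (Potri.008G116500.1, chromosome number 8, 1059 bp) was at 40.0, 13.9, 25.7 and 27.9 RPKM in C. In D1 LAR1 was at 3.86, 3.84, 13.4 and 6.23 RPKM. In D2 it reached 58.5 and 134.6 RPKM in hybrid 85 but only 8.44 and 8.41 RPKM in hybrid 89. D1 was thus below C without overlap, and D2 held hybrid 85 plants above all controls beside hybrid 89 plants below all controls. LAR2 (Potri.010G129800.1, chromosome number 10, 1089 bp) varied least: controls had 80.1 to 164.4 RPKM, D1 plants 63.1 to 126.9 RPKM and D2 plants 94.6 to 339.8 RPKM. Of the enzyme genes it alone had D1 plants of both hybrids inside the control range. LAR3 (Potri.015G050200.1, chromosome number 15, 1050 bp) was low throughout, with a highest value of 3.90 RPKM in C, 1.18 RPKM in D1 and 3.87 RPKM in D2. It had 0 to 5 reads in every D1 plant, too few for a reading of single plants.

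ANR makes epicatechin-type units. ANR1 (Potri.004G030700.1, chromosome number 4, 1008 bp) was at 110.3, 95.5, 80.8 and 87.7 RPKM in C. Under moderate drought ANR1 was at 22.8, 14.0, 52.3 and 36.6 RPKM. Under severe drought it was at 23.3, 83.1, 6.34 and 10.3 RPKM. All D1 plants lay below all controls, and in D2 only replicate 2 of hybrid 85 reached the lower end of the control range.

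MYB134 and MYB115 went different ways. MYB134 (Potri.006G221800.1, chromosome number 6, 867 bp) was at 81.1, 24.8, 67.6 and 52.3 RPKM in C. In moderate drought MYB134 was at 82.3, 53.0, 67.4 and 55.2 RPKM. In severe drought it was at 11.2, 35.3, 0.491 and 1.17 RPKM, the hybrid 89 values from 1 and 4 reads. D1 and C overlapped almost wholly; D2 lay below all D1 plants, and only 1 D2 plant was above the lowest control. MYB115 (Potri.002G173900.1, chromosome number 2, 858 bp) was at 3.44, 3.52, 3.04 and 2.76 RPKM in C. In D1 no MYB115 read was found in either hybrid 85 plant, and hybrid 89 had 2.90 and 0.962 RPKM. In D2 MYB115 was at 5.16, 13.1, 3.97 and 1.19 RPKM. The hybrid 85 plants of D1 lay at least 6.35-fold below the hybrid 85 controls, a bound from 3 reads over both libraries that covers counting error only, and 3 of 4 D2 plants were above every control.

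**Figure D2:**
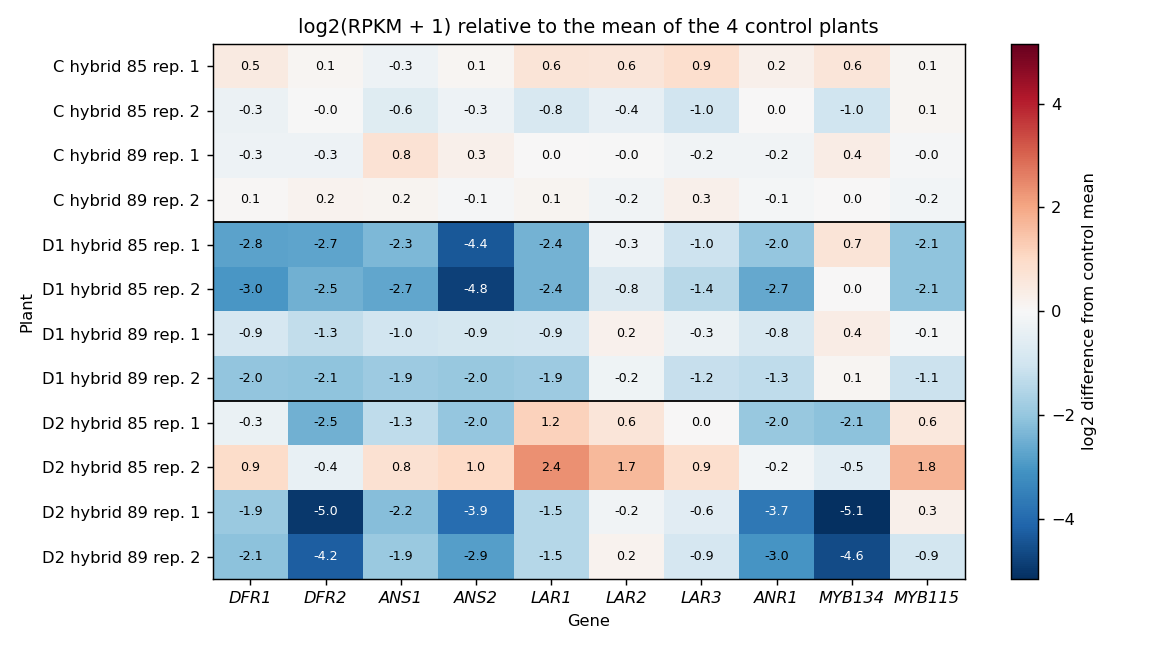
Each cell gives, for 1 plant (row) and 1 gene (column), log2(RPKM + 1) minus the mean of the 4 control plants; red is higher and blue lower than the control mean. The D1 rows are blue for the enzyme genes other than LAR2 and deepest in hybrid 85, with ANS2 at -4.4 and -4.8, and the D2 rows split between red and blue in hybrid 85 and mostly blue in hybrid 89.

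Moderate drought was compared with the controls to see how these genes stood at the milder stage. Changes are differences in log2(RPKM + 1), tested with limma over all 24117 genes that passed the filter, with stage and hybrid as terms and a Benjamini-Hochberg adjusted p below 0.05 as the call. In this fit 0 of 10 genes passed, beside 2.42% of all tested genes called lower and 3.14% called higher. All the same, 9 of 10 had a log2 change below 0 and below the median of all tested genes, which was 0.14; the median over the 10 was -1.80. The unadjusted p was under 0.05 for 7 of 10, against 5225 of 24117 tested genes. In DFR1, DFR2, ANS1, ANS2, LAR1 and ANR1, 6 of 10, the D1 and C values did not overlap, beside 5.57% of tested genes lower without overlap. The closest to a call was DFR1, at -2.16 ± 0.61 (SE, limma adjusted p = 0.0586), followed by ANS1 at -1.96 ± 0.61 (limma adjusted p = 0.0811; -3.36 with a pseudocount of 0.1 and -3.20 with limma-voom) and ANS2 at -3.01 ± 0.99 (limma adjusted p = 0.0956). The log2 change of LAR2 was -0.25 ± 0.36, and that of MYB134 was 0.29 ± 0.71, turning to -0.0303 with array weights and to -0.30 without replicate 2 of hybrid 85 in C.

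The call in D1 depended on how the spread between plants was estimated. By its construction, the additive fit takes the spread from all 12 plants and counts as spread any gap between hybrids that differs from stage to stage. In a model with the 6 groups of stage and hybrid, added after seeing the data, the same log2 changes had smaller errors: DFR1, DFR2, ANS1, ANS2, LAR1, ANR1 and MYB115 were called lower, 7 of 10, beside 4.53% of tested genes. The limma adjusted p in that model ran from 0.0034 for DFR1 to 0.042 for MYB115. With the C and D1 plants alone, also added after seeing the data, 6 of 10 were called lower, beside 3.36%. Limma-voom on the recovered reads called 3. Leaving out replicate 2 of hybrid 85 in D2 gave 5 calls in the additive fit. It gave 3 without replicate 1 of hybrid 89 in D2, and 2 without replicate 1 of hybrid 89 in D1. For limma-voom and the fits with a plant left out, the share of all tested genes called is not given here. Those counts show only that the call depends on the fit.

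In severe drought DFR2, ANR1 and MYB134 were lower than in the controls, 3 of 10, beside 19.2% of tested genes called lower and 21.6% called higher; a share of that size is near the background. DFR2 fell by 3.01 ± 0.71 on the log2 scale (SE, limma adjusted p = 0.0045). ANR1 fell by 2.21 ± 0.60 (limma adjusted p = 0.00999) and MYB134 fell by 3.10 ± 0.71 (limma adjusted p = 0.00371). These 3 calls held under every alternative run, each library left out included. DFR2 alone had D2 and C values that did not overlap, beside 17.5% of tested genes lower without overlap. The other 7 genes were not called, at log2 changes of -1.93 (ANS2) to 0.57 (LAR2). LAR1 was at 0.15 ± 0.72 and LAR3 at -0.14 ± 0.46, and both changed sign under quantile normalization, to -0.0881 and 0.0597. With replicate 2 of hybrid 85 left out of D2, the call went to 6 genes, DFR1, ANS1 and ANS2 being added. MYB115 then went from 0.41 to -0.0829. That plant was the highest D2 plant for all 10 genes, so leaving it out lowers the D2 level of each. The share of all tested genes called lower in that fit is not given here.

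D1 and D2 were each compared with the same control plants, so the 2 sets of changes are not independent. Set side by side, ANR1 was at -1.69 in D1 and -2.21 in D2, DFR2 at -2.12 and -3.01, DFR1 at -2.16 and -0.86, LAR1 at -1.90 and 0.15, MYB115 at -1.33 and 0.41, and MYB134 at 0.29 and -3.10 on the log2 scale. Tested directly, severe against moderate drought, LAR1 was higher in D2 by 2.05 ± 0.72 (SE, limma adjusted p = 0.0433) and MYB115 by 1.74 ± 0.55 (limma adjusted p = 0.0263). The size of the MYB115 change was 3.37 with a pseudocount of 0.1 and 2.65 with limma-voom. MYB134 fell by 3.39 ± 0.71 (limma adjusted p = 0.00283), the one gene of the list whose D2 and D1 values did not overlap. That made 2 of 10 higher and 1 of 10 lower, beside 15.8% and 18.2% of tested genes; 16.4% were lower without overlap. The MYB134 call held under every alternative run. The LAR1 call was lost in 13 alternatives and the MYB115 call in 5; without either hybrid 85 plant of D1, or either hybrid 85 plant of D2, neither gene was called.

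The hybrids were compared because each stage held both. Averaged over stages, hybrid 89 against hybrid 85 gave 0 of 10 calls in limma (0 at an unadjusted p under 0.05, and 0 with limma-voom), beside 0.974% of tested genes higher and 1.97% lower. Within stages the order was not the same. In C, no gene was called (0.240% of tested genes higher and 0.357% lower), and 7 of 10 genes had hybrids that overlapped. Both hybrid 89 plants were above both hybrid 85 plants for 1 gene, and below them for 2. Of the 24117 tested genes, 2579 had hybrid 89 above in this way and 7688 had hybrid 85 above. In D1 both hybrid 89 plants were above both hybrid 85 plants for 8 of 10 genes, the exceptions being LAR3 and MYB134, beside 35.4% of tested genes. In D2 both hybrid 85 plants were above both hybrid 89 plants for 10 of 10, beside 23.2% of tested genes. Replicate 2 of hybrid 85 was the highest D2 plant for all 10, as it was for 23.4% of tested genes. These orders of 2 against 2 plants are descriptions.

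In the 6-group model, ANS2 was higher in hybrid 89 than in hybrid 85 within D1, by 3.16 ± 0.78 on the log2 scale (SE, limma adjusted p = 0.0355), 1 of 10 beside 4.00% of tested genes higher and 3.50% lower. That call was lost without any one of the 4 D1 plants or either hybrid 89 control. Within D2, 5 of 10 genes were lower in hybrid 89, beside 2.57% of tested genes lower and 2.88% higher. MYB134 differed by -3.55 ± 0.58 (limma adjusted p = 0.0103), LAR1 by -3.25 ± 0.51 (limma adjusted p = 0.00925) and DFR2 by -3.16 ± 0.58 (limma adjusted p = 0.016; -5.23 with a pseudocount of 0.1). DFR1 and ANR1 differed by -2.33 ± 0.47 and -2.31 ± 0.50 (limma adjusted p = 0.0228 and 0.0273). These calls did not hold without replicate 2 of hybrid 85 in D2, a fit that leaves 1 plant in that group. The ANR1 difference was then -1.41. How the calls over all tested genes changed in that fit is not given here.

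Within hybrid 85, 6 of 10 genes were lower under moderate drought than in the controls, beside 3.40% of tested genes lower and 2.71% higher. ANS2 fell by 4.50 ± 0.78 (SE, limma adjusted p = 0.0101), DFR1 by 2.96 ± 0.47 (limma adjusted p = 0.00829), and DFR2, ANR1, LAR1 and MYB115 were at -2.63 to -2.16. The fitted change of MYB115, which had no read in these plants, depends on the pseudocount (-5.16 at 0.1) and is no bound. Mean ANS2 RPKM was 41.1 in the hybrid 85 controls and 0.869 in the hybrid 85 plants of D1, a ratio of 47.3. The calls did not hold without either D1 plant of hybrid 85, in fits that leave 1 plant in that group. How the calls over all tested genes changed in those fits is not given here. Within hybrid 89, 0 of 10 were called in D1, beside 1.27% of tested genes lower and 4.27% higher; 4 had an unadjusted p under 0.05, as had 5869 of 24117 tested genes. Leaving out either hybrid 85 plant of D2, which enters that fit only through the spread, moved the number of calls. The share of all tested genes called is not given for those fits. The test of the difference between hybrids in the D1 change called 0 of 10 in limma, with a smallest adjusted p of 0.221 and 3 at an unadjusted p under 0.05. Limma-voom called 0 of 10 too, and the background was 0.00% each way (4042 of 24117 genes at an unadjusted p under 0.05). A hybrid difference in the D1 change is therefore not shown.

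Within hybrid 89, 7 of 10 genes were lower under severe drought than in the controls, beside 17.0% of tested genes lower and 23.2% higher. MYB134 fell by 5.07 ± 0.58 (SE, limma adjusted p = 9.42e-05), from a mean of 59.99 RPKM in the hybrid 89 controls to 0.832 RPKM. DFR2 fell by 4.54 ± 0.58 (limma adjusted p = 0.000198), ANS2 by 3.48 ± 0.78 (limma adjusted p = 0.00519) and ANR1 by 3.22 ± 0.50 (limma adjusted p = 0.000607). ANS1, DFR1 and LAR1 were called at -2.52, -1.93 and -1.56, of which LAR1 lost its call when any one of the 4 plants was left out. LAR2, LAR3 and MYB115 were not called, at 0.10, -0.77 and -0.24. In hybrid 85 the picture differed: LAR1 was higher than in the controls by 1.86 ± 0.51 (limma adjusted p = 0.0207), 1 of 10 beside 13.5%, and no gene was called lower, beside 13.9%. That LAR1 call was lost when replicate 2 of hybrid 85 was left out of D2 or of C, and under quantile normalization. With that D2 plant left out, DFR2 went from -1.47 to -2.52 and ANR1 from -1.20 to -2.09. With replicate 1 of hybrid 85 left out of D2 instead, they were at -0.42 and -0.30.

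The difference between the hybrids in the D2 change was itself tested. All 10 genes had a lower change in hybrid 89, and 7 of 10 had an unadjusted p under 0.05 (4414 of 24117 tested genes did), but 0 of 10 passed after adjustment, beside 0.340% of tested genes higher and 0.129% lower. The smallest values were those of MYB134, at -3.94 ± 0.82 (SE, limma adjusted p = 0.0627), and LAR1, at -3.42 ± 0.72 (limma adjusted p = 0.0655). The sizes depended on single plants. Without replicate 2 of hybrid 85 in D2, the difference went from -3.09 to -1.58 for ANS2 and from -2.02 to -1.13 for ANR1. For DFR2 it went from -3.07 to -2.02, and for ANS1 from -2.73 to -1.69.

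**Figure D3:**
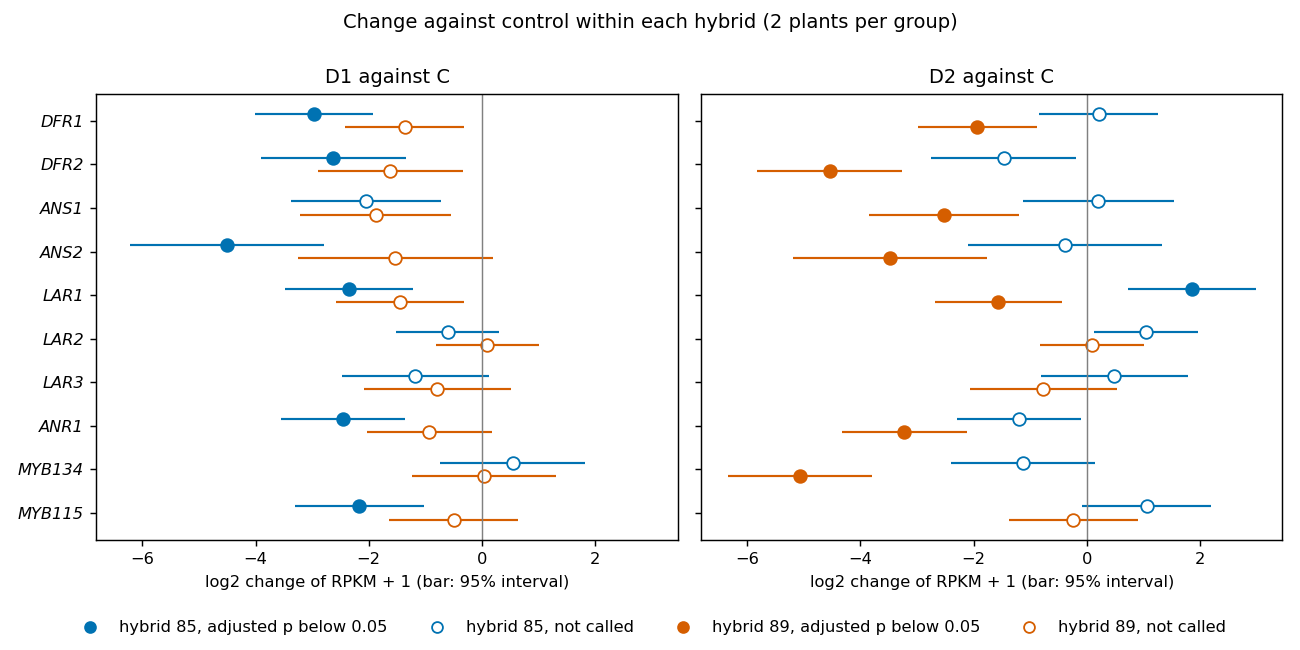
log2 change of RPKM + 1 against control (x axis) for each gene (y axis) in D1 (left) and D2 (right), separately for hybrid 85 (blue) and hybrid 89 (orange), with 2 plants per group; bars are 95% intervals of the 6-group model and filled points have a limma adjusted p below 0.05. Hybrid 85 holds the 6 filled points of D1, and in D2 hybrid 89 holds 7 filled points below 0 while LAR1 in hybrid 85 is the only filled point above 0.

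Proportions between genes within a plant do not depend on library scaling, and are given as a description with no test. In C, LAR1 RPKM was 0.146 to 0.363 of ANR1 RPKM, and in D1 it was 0.170 to 0.275. In D2 it was 2.51 and 1.62 in hybrid 85, and 1.33 and 0.813 in hybrid 89. All 4 D2 plants were thus above all 8 others, in the hybrid where LAR1 was high and in the hybrid where both genes were low. DFR1 over ANR1 moved alike: controls had 0.380 to 0.570, D1 plants 0.252 to 0.461 and D2 plants 0.921 to 1.74, again without overlap of D2 with the rest. Both ratios are over ANR1, so they are not separate observations. In the hybrid 89 plants of D2, ANR1 had 15 and 41 reads and LAR1 had 21 and 35. How often ratios of other gene pairs do not overlap is not given here. LAR2 over LAR1, by contrast, went with the hybrid in D2. It was 3.36 to 5.76 in C and 9.49 to 23.1 in D1; in D2 it was 2.87 and 2.52 in hybrid 85 and 11.2 and 14.5 in hybrid 89. LAR2 made up 75.7% to 84.9% of the summed LAR RPKM in controls, 89.7% to 95.5% under moderate and 71.1% to 93.2% under severe drought.

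**Figure D4:**
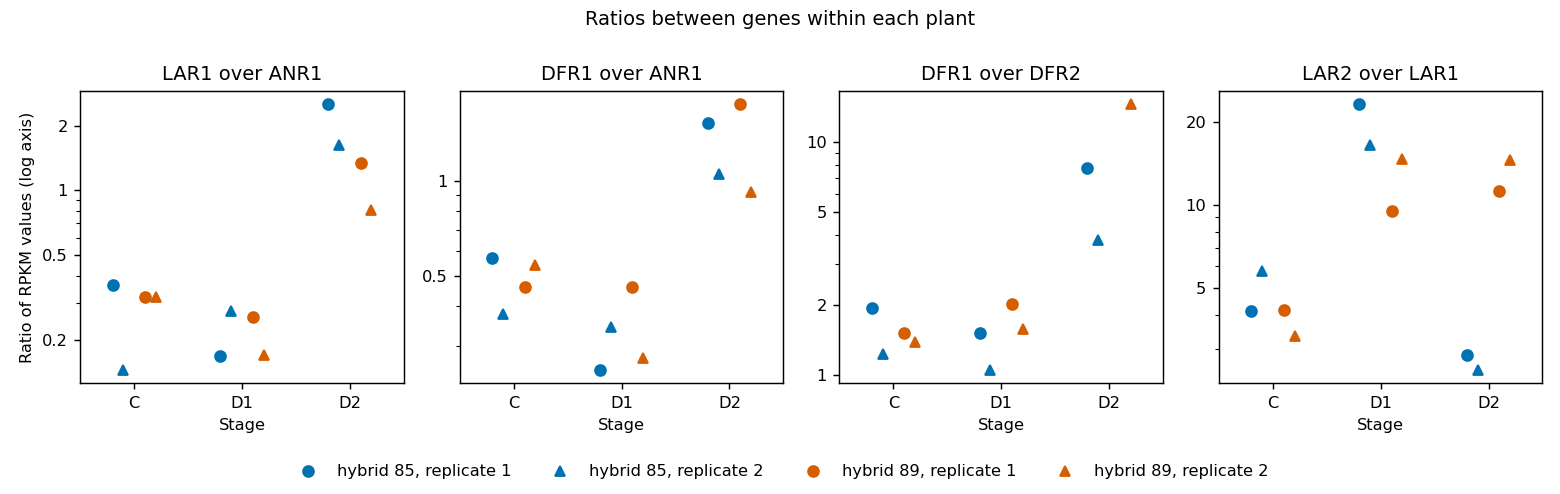
Ratio of RPKM values of 2 genes within each plant (y axis, log scale) by stage (x axis), coloured by hybrid; the D2 plant with no DFR2 read has no point in the third panel. LAR1 over ANR1, DFR1 over ANR1 and DFR1 over DFR2 are highest in D2 in both hybrids. Their lowest D2 ratios are 0.813, 0.921 and 3.81. For DFR1 over DFR2 in D2, hybrid 89 has only replicate 2, with 3 DFR2 reads. LAR2 over LAR1 is 2.87 and 2.52 in hybrid 85 but 11.2 and 14.5 in hybrid 89 in D2.

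The genes whose pattern was most like each member were sought among tested genes with a mean of at least 5 RPKM, with the list's own genes kept in. Likeness was the root mean square difference of log2(RPKM + 1) over the 12 libraries, after each gene's own mean was subtracted. DFR2 and ANR1 were each other's closest gene of 15648, at a difference of 0.47. DFR1 was closest to ANS1 (0.51), and both ANS2 (0.85) and LAR1 (0.55) were closest to DFR1. LAR2 stood second for LAR3, whereas LAR3 stood at rank 137 for LAR2. The nearest list member to MYB115 was DFR1, at rank 17 and a difference of 0.64. MYB134 had the most distant nearest member, DFR2, at rank 883 and a difference of 1.28. All these genes share the same 12 libraries, and LAR3, ANS1 and MYB115 rest on few reads.

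Outside the list, Potri.002G130700.1 was the gene most like the mean profile of the 8 enzyme genes (difference 0.45), with means of 10.8 RPKM in C, 3.32 RPKM in D1 and 4.43 RPKM in D2. It was also the nearest outside gene to DFR1 and ANS1. Potri.001G348300.1 (0.52) and Potri.019G130700.1 (0.54) came next. Potri.T170200.1, at 739.6, 269.4 and 175.0 RPKM in the same order, was nearest to both DFR2 (0.51) and ANR1 (0.48). Nearest to MYB134 was Potri.005G071900.1 (0.57), with 75.8, 82.7 and 10.7 RPKM. For MYB115 it was Potri.001G051600.1 (0.54), with 281.3, 129.3 and 406.2 RPKM, and for LAR1 Potri.003G176700.1 (0.62), with 8.85, 2.29 and 11.8 RPKM. ANS2 was nearest to Potri.006G226900.1 (0.99), LAR2 to Potri.003G090900.1 (0.29) and LAR3 to Potri.006G058900.1 (0.42).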

How the data were processed

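The authors computed RPKM for each gene and library, per the file headers. The submitters' processing notes name Trimmomatic 0.32; for aligner, counting tool, use of strand, build and annotation the sources used here give nothing. The authors' 3 columns of stage means were not used. Whole reads were recovered from the steps of the RPKM values: with a tolerance of 0.01 reads, 100.0% of 321994 values above 0 came out whole. Among 7927 genes with many reads, 100.0% had a recovered length that divides by 3, so lengths are coding lengths. Floors of 3 reads cover counting error only.

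Tests used log2(RPKM + 1) in limma 3.58.1 (R 4.3.3) with a trended empirical Bayes variance and Benjamini-Hochberg adjustment over the 24117 genes that reached 1 RPKM in 4 or more libraries. This scale understates the change of low genes. Stage and hybrid were additive terms, and changes within a hybrid or stage, and differences between them, came from a model with 6 groups of 2 libraries. The scripts were tested on simulated data. Alternatives were other pseudocounts, filters, scalings, variance models and covariates, a replicate block, limma-voom on the recovered reads and each library left out in turn; the 6-group model for the stage changes and the fits on 2 stages were added after seeing the data.

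The 10 genes, the tests and the rule for named genes were chosen with earlier results of these data known. The rule named all 10 genes and, by likeness of profile, the nearest other gene to each and the 3 nearest to the enzyme mean. Other pathway genes and leaf markers could not be matched to IDs without an annotation and are not analysed here. Replicate numbers name different clones, and same-numbered libraries of one hybrid had deviations that correlated at -0.036 to 0.082 across genes, so they were not treated as pairs.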

Additional observations from a re-analysis of the deposited data

Results flagged for a closer look

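ANS1 and ANS2 in D2 were set apart by 1 plant, replicate 2 of hybrid 85, at 10.1 RPKM (10.0726) for ANS1 and 90.0 RPKM (90.0387) for ANS2. The gap to the next D2 plant was 0.872 and 0.906 of the range of the 4 D2 plants. These are 2 of 50 groups looked at, no more than the about 1 in 20 that chance gives. This plant was the highest D2 plant for all 10 genes, as it was for 23.4% of tested genes. With it left out, the log2 change in D2 against C went from -1.16 to -1.90 for ANS1 and from -1.93 to -3.07 for ANS2. Leaving out the highest plant lowers the D2 level by construction. Its total of 3199610 reads was within the range of the other D2 libraries. Why this plant stood apart was not tested.

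LAR1 moved in opposite directions in the hybrids from C to D2: both hybrid 85 plants were above every control and both hybrid 89 plants below every control. The difference between the hybrids in the log2 change was -3.42 ± 0.72 (SE, limma adjusted p = 0.0655), which did not pass the threshold.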

How the results depend on the processing

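Over 75 results for single genes, 26 settings gave 1815 values, of which 12 changed sign, none for a gene with an unadjusted p under 0.05. All 10 genes were taken for D1 against C, D2 against C and D2 against D1. In the other comparisons only genes with an unadjusted p under 0.05 in the main fit were taken. Such genes could hardly change sign, so 12 of 1815 is no measure of stability. The comparison of hybrids averaged over stages had no such gene and is not among the 75. MYB134 in D1 against C, at 0.29, was at -0.0303 with array weights and at -0.30 to 0.635 over the libraries left out in turn. LAR1 in D2 against C, at 0.15, was at -0.0881 with quantile normalization and at -0.56 to 0.636 over the libraries left out, below 0 when replicate 2 of hybrid 85 was left out of C (-0.28) or either hybrid 85 plant out of D2 (-0.11 and -0.56). LAR3 in D2 against C, at -0.14, was at 0.0597 with quantile normalization and at -0.54 to 0.15 over the libraries left out; it was above 0 when replicate 1 of hybrid 85 was left out of C (0.15) or replicate 2 of hybrid 89 out of D2 (0.0945). MYB115 in D2 against C ran from -0.0829 to 0.897 and ANS2 in D2 against D1 from -0.0556 to 1.85, both lowest when replicate 2 of hybrid 85 was left out of D2. ANR1 in D2 against D1 was at 0.00623 with array weights. The cause was not tested.

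The number of genes called lower in D1 against C, 0, became 2 with quantile normalization, 1 with median-ratio scaling, 6 with array weights, 3 with limma-voom, 7 in the 6-group model and 6 with only the 2 stages compared. For D2 against C, 3 became 5 in the 6-group model. For D2 against D1, 2 genes called higher became 1 without a filter, without the variance trend, without the hybrid term and with the replicate block, 4 with array weights and in the 6-group model, and 0 with only the 2 stages compared. Hybrid 89 against 85 within D1 went from 1 higher to 2 with pseudocount 0.1, 3 with array weights and 0 without a filter or with limma-voom. Within D2, 5 lower became 2 with array weights. D1 against C in hybrid 89 went from 0 lower to 1 with quantile normalization and 4 with array weights, and D2 against C in hybrid 85 from 1 higher and 0 lower to 0 and 1 with quantile normalization. Over all 24117 tested genes, the count lower in D1 against C was 584 in the main fit. It rose to 955 after quantile normalization, 956 after median-ratio scaling, 1093 in the 6-group model and 810 with only the 2 stages compared. For D1 against C in hybrid 89, quantile normalization moved it from 306 to 563. That setting gave 2935 higher and 3036 lower for D2 against C in hybrid 85, against 3253 and 3358. Shares of all tested genes are not given for the other counts here.

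With single libraries left out, counts of genes called ran from 0 to 5 lower in D1 against C, 3 to 6 lower in D2 against C, and 0 to 3 higher and 1 to 2 lower in D2 against D1. The difference between hybrids in D2 against C gave 0 to 3 lower. Hybrid 89 against 85 gave 0 to 1 higher within D1 and 0 to 7 lower within D2. D1 against C gave 0 to 7 lower in hybrid 85 and 0 to 2 in hybrid 89. D2 against C gave 0 to 2 higher and 0 to 3 lower in hybrid 85, and 5 to 7 lower in hybrid 89. The share of all tested genes called is not given for these fits. A fit that leaves 1 plant in a group assumes that it varies like the others. The replicate block moved the call of LAR1 in D2 against D1 (adjusted p = 0.0539) and no other count of calls. The median log2 change of all genes in D1 against C was 0.14, and -0.02 with median-ratio scaling, 0.03 with quantile normalization and 0.17 with equal sums. Genes with few reads (LAR3, ANS1, MYB115) limit what could be seen in single plants.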
